A study of Mus musculus with 9 samples.

Results

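The genes described here are 10 genes of the Hedgehog pathway and of the ventral neural tube, Shh, Ptch1, Smo, Gli1, Gli2, Gli3, Foxa2, Nkx2-2, Nkx6-1 and Olig2. Every probe set that the platform annotation assigns to exactly 1 of these symbols was taken, which gave 13 of 22626 tested probe sets, with 2 each for Ptch1, Gli2 and Smo and 1 for each other gene. They are 10 of 12393 genes named by the annotation, and no filter dropped a probe set. RNA came from whole mouse embryos collected 9.5 days after conception and was hybridised to 9 Affymetrix arrays in 5 genotype groups. The groups were Notch1 null (Notch1tm1Con/tm1Con, 2 arrays), Notch1 het (Notch1tm1Con/+, 1 array), Dll3 null (Dll3neo/neo, 2 arrays), Dll3 het (Dll3neo/+, 2 arrays) and wild type (+/+, 2 arrays). A strain, C57BL/6J, is named only for Notch1 null replicate 1. Notch1 is a receptor and Dll3 a divergent ligand of the Notch pathway, and the arrays ask which transcripts follow loss of either. Whether an array holds 1 embryo or a pool, and whether replicates come from separate litters, is not stated. The p-values therefore cover array-to-array spread alone. The 2 arrays of Notch1 null, of Dll3 null and of Dll3 het differ in their pattern of sex-linked transcripts, so they hold different embryos. Both wild-type arrays have a male pattern, which does not show whether they hold different embryos. Whether their spread is only technical is not known.

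Hedgehog signalling begins when the secreted protein Shh, made in the embryo by the notochord and the floor plate, binds the receptor Ptch1 and so relieves its block on the membrane protein Smo. Smo then shifts the balance of the Gli transcription factors, of which Gli1 acts as an activator and is itself a target, Gli2 is the main activator and Gli3 acts largely as a repressor. In the neural tube, graded Shh divides the progenitors into stripes from ventral to dorsal. Foxa2 marks the floor plate, Nkx2-2 the neighbouring progenitors, Olig2 the motor neuron progenitors and Nkx6-1 a broad ventral zone that spans these stripes. Shh and Foxa2 are also made in notochord and gut endoderm.

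In Notch1 null embryos 2 genes of the ventral progenitor stripes, Nkx2-2 and Olig2, fell, and Gli3 rose, against wild type (2 arrays each). Shh itself, its receptor and target Ptch1 and the target Gli1 did not pass the test in that comparison. The Gli3 call held in 10 of 21 alternative settings, and both wild-type arrays were the lowest of the 9 for Gli3. In Dll3 null and Dll3 het embryos none of the 13 probe sets passed, where 0.0884% and 0.486% of all probe sets did. Values are the deposited ratios, in which each probe set is scaled to about 1 at its median over the 9 arrays, so a ratio compares arrays for 1 probe set and says nothing of how abundant a transcript is. Differences are log2 of the ratios from a limma fit of all 9 arrays with its standard error (SE), and a probe set is called changed at an adjusted p under 0.05 (Benjamini-Hochberg over all 22626 probe sets). In whole embryos, fewer cells of a type and less RNA per cell cannot be told apart.

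The promoters of the 3 genes that changed in Notch1 null are shown, as the sequence next to the starts of the genes the results turn on. Each is the 250 bases before the annotated start, 5′ to 3′ on the gene's strand, from RefSeq on GRCm38.p6. The Nkx2-2 window is chr2:147186403-147186652 on the minus strand, the Olig2 window chr16:91225300-91225549 on the plus strand and the Gli3 window chr13:15463473-15463722 on the plus strand. Capitals mark CCACCC or its reverse complement, the core of the Gli binding motif.
Nkx2-2: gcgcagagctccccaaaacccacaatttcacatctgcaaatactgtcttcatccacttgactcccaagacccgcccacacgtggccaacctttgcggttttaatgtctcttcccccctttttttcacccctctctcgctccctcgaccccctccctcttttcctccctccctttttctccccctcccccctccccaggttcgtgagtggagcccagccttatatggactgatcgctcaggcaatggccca
Olig2: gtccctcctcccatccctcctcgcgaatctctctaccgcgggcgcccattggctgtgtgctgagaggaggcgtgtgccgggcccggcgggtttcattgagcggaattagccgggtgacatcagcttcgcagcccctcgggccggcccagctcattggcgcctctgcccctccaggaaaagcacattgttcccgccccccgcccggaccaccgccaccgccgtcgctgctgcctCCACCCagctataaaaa
Gli3: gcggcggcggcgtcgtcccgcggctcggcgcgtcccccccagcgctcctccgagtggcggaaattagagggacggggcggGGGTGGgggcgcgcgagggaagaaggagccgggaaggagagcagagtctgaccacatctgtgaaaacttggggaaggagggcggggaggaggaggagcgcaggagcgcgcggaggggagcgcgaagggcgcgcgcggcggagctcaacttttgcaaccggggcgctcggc
Such windows were found for 8 of the 10 genes, 10 windows in all, and were searched on both strands for the Gli motif GACCACCCA, for its core CCACCC, which lies within it, and for TGGGAA, bound by RBPJ, the DNA-binding partner of the Notch receptors. GACCACCCA was in none of the 10 windows and in 0.225% of 32851 promoters. The core was present 1 time each in the Olig2, Gli3 and Smo windows, 2 times in Gli2 and 2 times in each of 2 of the 3 Foxa2 windows, and in 28.1% of all promoters. TGGGAA was in none of the 10 windows, against 21.6% of all promoters. A missing match says only that these letters are not in these windows.

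Facts of the arrays that touch these results are as follows. In the arrays labelled Notch1 null, the Notch1 probe sets were not lower than in wild type. Ratios at 1418633_at were 1.467 and 1.685 in Notch1 null, against 0.916 and 1.011 in wild type (log2 0.71 ± 0.13 SE, adjusted p = 0.0138 by limma), and the other, 1418634_at, did not pass (log2 0.60 ± 0.23). Dll3 at 1449236_at was 0.804 and 0.933 in Dll3 null, against 1.093 and 1.000 in wild type, and did not pass (log2 -0.27 ± 0.12, adjusted p = 0.486). No source used here places these probes relative to the targeted sequence, and directions below refer to arrays as labelled. The dap control RNA, added before labelling, had mean ratios of 5.41 and 2.68 in Notch1 null, 1.00 in Notch1 het, 0.382 and 0.404 in Dll3 null, 0.395 and 0.421 in Dll3 het and 7.07 and 9.91 in wild type. It differs between genotypes, and its part in the results below was not tested. Replicate 1 of each group other than wild type had a female pattern of Xist and Eif2s3y, and the other 5 arrays, both wild types included, a male one. Because levels were divided out, the embryo tissue could not be checked by the presence of its markers.

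**Figure D1:**
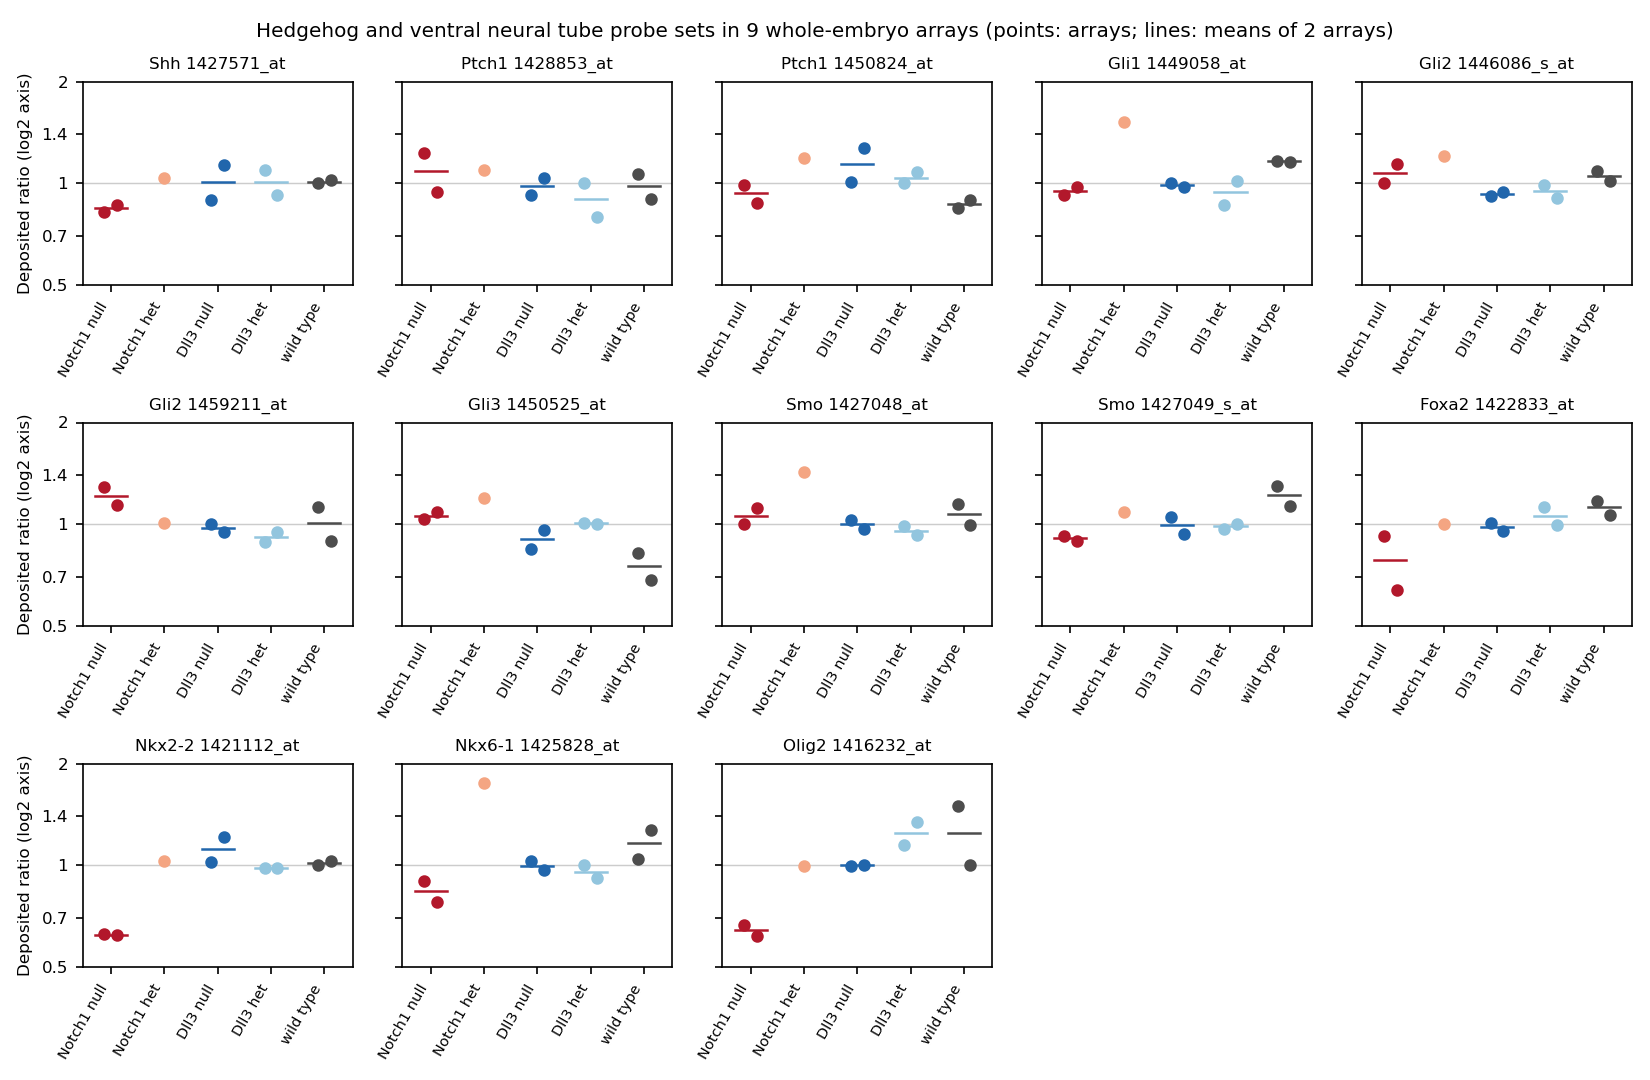
Deposited ratio (log2 axis) of the 13 probe sets in each of 9 arrays by genotype, with a line at the mean of 2 arrays. Nkx2-2 and Olig2 are lowest in both Notch1 null arrays (0.624 to 0.669), and Gli3 is lowest in both wild-type arrays (0.686 and 0.822).

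Notch1 null was set against wild type to ask how the ventral patterning genes stand when the receptor is lost. Nkx2-2, a repressor that sets the most ventral progenitor stripe beside the floor plate, had ratios of 0.626 and 0.624 in Notch1 null, against 1.000 and 1.029 in wild type. It fell 1.62-fold (log2 -0.70 ± 0.11 SE, adjusted p = 0.00715), and the 2 groups did not overlap. The Notch1 null arrays also lay below all 7 others, of which the lowest was 0.981. The call ended without Notch1_null replicate 2 (adjusted p = 0.0632) and without wild_type replicate 2 (0.0590), while the log2 difference stayed between -0.72 and -0.62 over 21 alternatives.

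Olig2, the bHLH factor of motor neuron progenitors, had ratios of 0.669 and 0.617 in Notch1 null, against 1.501 and 1.000 in wild type. It fell 1.91-fold (log2 -0.93 ± 0.18, adjusted p = 0.0134). Both Notch1 null arrays were again below the 7 others, whose lowest value was 0.995, while the wild-type arrays differed widely from each other. The Olig2 call ended without Notch1_null replicate 1 (adjusted p = 0.0628), Notch1_null replicate 2 (0.113) or wild_type replicate 1 (0.0624), and the log2 difference was -0.64 without that wild-type array.

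Foxa2 and Nkx6-1 were lower in Notch1 null without passing. Foxa2, the forkhead factor of floor plate, notochord and endoderm, had 0.925 and 0.641 in Notch1 null, against 1.175 and 1.069 in wild type (log2 -0.54 ± 0.16, adjusted p = 0.0721). Replicate 2 was much the lower of the Notch1 null arrays. Without Notch1_null replicate 1 Foxa2 passed (log2 -0.81, adjusted p = 0.0298), without replicate 2 it did not (log2 -0.28, adjusted p = 0.380), and with embryo sex in the fit it did too (log2 -0.67, adjusted p = 0.0325). The replicate block, which takes replicate number as a term, gave it an adjusted p of 0.0430. Replicate number and embryo sex differ only at wild_type replicate 1, so these settings are not separate checks, here or below. Nkx6-1, a homeobox factor of the ventral progenitors, had 0.898 and 0.781 in Notch1 null, against 1.047 and 1.276 in wild type (log2 -0.46 ± 0.13, adjusted p = 0.0550).

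The ligand Shh, its receptor Ptch1 and Smo did not pass. Shh had 0.824 and 0.866 in Notch1 null, against 1.000 and 1.024 in wild type (log2 -0.26, 95% interval -0.57 to 0.05, adjusted p = 0.295). Its Notch1 null arrays were the lowest of the 9, just under the 0.891 of Dll3 null replicate 1. Ptch1 at 1428853_at had 1.228 and 0.944 in Notch1 null, against 1.063 and 0.901 in wild type, and its log2 difference was 0.14 (interval -0.23 to 0.51). At 1450824_at it had 0.992 and 0.876 in Notch1 null, against 0.847 and 0.894 in wild type, with a log2 difference of 0.10 (-0.20 to 0.40). Both Ptch1 probe sets thus overlapped between the groups, and their correlation over the 9 arrays was 0.11. Smo, the signal transducer, gave different values at its 2 probe sets. At 1427049_s_at it had 0.927 and 0.894 in Notch1 null, against 1.302 and 1.136 in wild type (log2 -0.42 ± 0.11, adjusted p = 0.0506), and it passed in 5 of 21 alternatives. At 1427048_at it had 1.000 and 1.116 in Notch1 null, against 1.147 and 0.998 in wild type (log2 -0.02 ± 0.12), and the groups overlapped.

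Among the Gli factors, Gli3 rose in Notch1 null. Its ratios were 1.036 and 1.086 in Notch1 null, against 0.822 and 0.686 in wild type (1.41-fold, log2 0.50 ± 0.12, adjusted p = 0.0340), with no overlap. The call held in 10 of 21 alternatives. It ended without Notch1_null replicate 1 (adjusted p = 0.107) or 2 (0.187), wild_type replicate 1 (0.0548) or 2 (0.194), or either Dll3_het array (0.0525). It also ended with the replicate block (0.0513), quantile normalization (0.0510), embryo sex in the fit (0.0519), or when the 2 groups alone or the 5 wild-type and Notch1 arrays alone were fitted (0.0606 each). Gli1, the activator that reads out pathway activity, had 0.922 and 0.976 in Notch1 null, against 1.166 and 1.157 in wild type. It did not pass (log2 -0.29, interval -0.54 to -0.04, adjusted p = 0.145). Gli2 at 1459211_at had 1.291 and 1.140 in Notch1 null, against 1.128 and 0.895 in wild type (log2 0.27 ± 0.13, adjusted p = 0.257). Its other probe set, 1446086_s_at, overlapped between the groups (log2 0.02 ± 0.11).

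Counted together, 1 of the 13 probe sets was higher and 2 were lower in Notch1 null, and 10 did not pass. Over all tested probe sets 9.45% were called, 3.46% higher and 5.99% lower. Arrays of the 2 groups did not overlap at 9 of the 13, while this was so for 55.2% of all probe sets. The median log2 difference of the 13 was -0.26, beside -0.03 over all. Both Notch1 null arrays lay below the 7 others at 6 of the 13 (46.2%), Nkx2-2, Olig2, Foxa2, Nkx6-1, Shh and Smo at 1427049_s_at. This pattern, chosen after the values were seen, held for 11.3% of all probe sets.

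**Figure D2:**
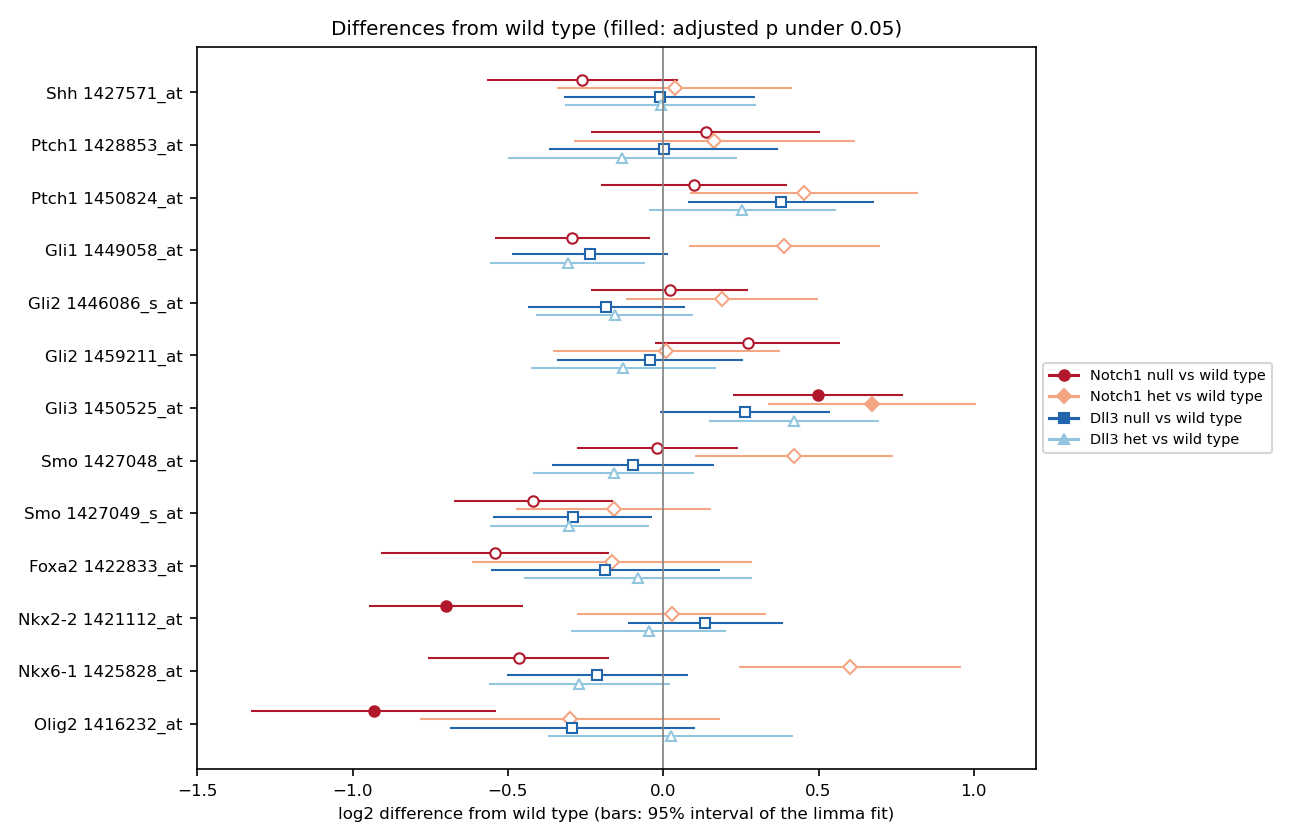
log2 difference from wild type of each probe set (points) with its 95% interval from the limma fit (bars), for Notch1 null, Notch1 het, Dll3 null and Dll3 het. Filled points, adjusted p under 0.05, are Nkx2-2 (-0.70), Olig2 (-0.93) and Gli3 (0.50) in Notch1 null and Gli3 (0.67) in Notch1 het.

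The single Notch1 het array allows a comparison only if it varies like the arrays of the other groups, as the fit assumes. Against wild type, Gli3 was higher, at 1.197 in Notch1 het against 0.822 and 0.686 in wild type (log2 0.67 ± 0.15, adjusted p = 0.0489). It was the 1 probe set of the 13 to pass, where 2.76% of all probe sets did. The Gli3 call ended when any 1 of the 8 other arrays was left out (adjusted p 0.0551 to 0.174). It also ended with the replicate block (0.0868), quantile normalization (0.0967), embryo sex in the fit (0.119), the 2 groups alone (0.174) and the 5 wild-type and Notch1 arrays alone (0.0871). Nkx2-2 was 1.034 in Notch1 het against 1.000 and 1.029 in wild type, and Olig2 was 0.995 in Notch1 het against 1.501 and 1.000 in wild type. Nkx6-1 was 1.754 in Notch1 het, the highest of all arrays, against 1.047 and 1.276 in wild type, and did not pass (log2 0.60 ± 0.16, adjusted p = 0.0805). Gli1 (1.522) and Smo at 1427048_at (1.433) were also highest in this array. In all it was the highest array at 5 of the 13 probe sets (38.5%), as it was for 15.8% of all probe sets.

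Notch1 null was also set against Notch1 het, the single array above. Nkx6-1 and Gli1 were higher in that array (1.754 and 1.522) than in wild type. Wild type had 1.047 and 1.276 for Nkx6-1 and 1.166 and 1.157 for Gli1. Neither gene passed in Notch1 null against wild type. For these genes the comparison therefore cannot show what a second copy of the allele adds. Nkx6-1 was 2.09-fold lower (0.898 and 0.781 in Notch1 null, 1.754 in Notch1 het, log2 -1.07 ± 0.16, adjusted p = 0.0175). Nkx2-2 was 1.65-fold lower (log2 -0.73 ± 0.14, adjusted p = 0.0362) and Gli1 1.60-fold lower (log2 -0.68 ± 0.14, adjusted p = 0.0458). These were 3 lower and 0 higher among the 13, where 1.78% of all probe sets passed. Olig2 did not pass here (log2 -0.63 ± 0.22, adjusted p = 0.169), nor did Gli3 (log2 -0.17 ± 0.15, adjusted p = 0.630). The Gli1 call ended when any 1 of the 8 other arrays was left out (adjusted p up to 0.143). The Nkx2-2 call ended without either Notch1_null (up to 0.144), wild_type (0.0752) or Dll3_het (0.0631) array, and the Nkx6-1 call without Notch1_null replicate 1 (0.0585) or 2 (0.107). With the replicate block the adjusted p was 0.0624 for Nkx2-2 and 0.0736 for Gli1, and embryo sex in the fit ended these 2 calls too (0.0745 and 0.0810). All 3 calls also ended with quantile normalization (adjusted p 0.0564 to 0.142), the 2 groups alone (0.167 to 0.169) or the 5 wild-type and Notch1 arrays alone (0.0722 to 0.0768).

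Dll3 null and Dll3 het were each set against wild type, to ask whether loss of the ligand moves the same genes. None of the 13 probe sets passed in Dll3 null, where limma called 0.0884% of all probe sets, and none in Dll3 het, where it called 0.486%. At an unadjusted p under 0.05 there were 2 of 13 in Dll3 null, beside 10.2% of all, and 3 of 13 in Dll3 het, beside 16% of all. In Dll3 null these 2 were Ptch1 at 1450824_at and Smo at 1427049_s_at. Ptch1 there had 1.007 and 1.273 in Dll3 null, against 0.847 and 0.894 in wild type (log2 0.38, interval 0.08 to 0.68, adjusted p = 0.375). Smo had 1.055 and 0.936 in Dll3 null, against 1.302 and 1.136 in wild type (log2 -0.29 ± 0.11, adjusted p = 0.434). The adjusted test called neither of these probe sets.

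The ventral progenitor genes, Shh and Gli3 did not pass in either Dll3 group. Nkx2-2 had 1.026 and 1.211 in Dll3 null, against 1.000 and 1.029 in wild type (log2 0.14, interval -0.11 to 0.38). Olig2 had 0.996 and 1.004 in Dll3 null and 1.152 and 1.348 in Dll3 het, against 1.501 and 1.000 in wild type. The Dll3 null interval of Olig2 ran from -0.69 to 0.10, which spans both a lower and a higher value. Shh differed from wild type by -0.01 in Dll3 null (interval -0.32 to 0.30) and by -0.01 in Dll3 het (-0.32 to 0.30). Gli3 had 0.846 and 0.962 in Dll3 null and 1.013 and 1.000 in Dll3 het, against 0.822 and 0.686 in wild type. Its log2 differences were 0.26 ± 0.12 (adjusted p = 0.505) in Dll3 null and 0.42 ± 0.12 (adjusted p = 0.137) in Dll3 het. Both wild-type arrays were thus the lowest of the 9 for Gli3, a position they held for 5.69% of all probe sets. All 4 comparisons with wild type share these 2 arrays.

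Dll3 null against Dll3 het, which shares no array with the wild-type group, gave 0 of 13 probe sets by limma, as it gave 0% of all probe sets. At an unadjusted p under 0.05 there were 0 of the 13 and 5.31% of all probe sets. The log2 differences of the 13 lay within 0.32 of 0, with Olig2 the farthest (-0.32, interval -0.71 to 0.08, 0.996 and 1.004 in Dll3 null, 1.152 and 1.348 in Dll3 het).

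Receptor and ligand loss were then compared directly, as Notch1 null against Dll3 null. Nkx2-2 was 1.78-fold lower in Notch1 null (0.626 and 0.624 in Notch1 null, 1.026 and 1.211 in Dll3 null, log2 -0.83 ± 0.11, adjusted p = 0.00601). It was 1 lower of the 13, where 5.74% of all probe sets passed in either direction. The Nkx2-2 call ended without Notch1_null replicate 2 (adjusted p = 0.0688) and when just their 4 arrays were fitted (0.0706). Olig2 did not pass (0.669 and 0.617 in Notch1 null, 0.996 and 1.004 in Dll3 null, log2 -0.64 ± 0.18, adjusted p = 0.0683), and passed without either wild_type array (0.0342). For Gli3 the difference was 0.23 ± 0.12 (adjusted p = 0.328), so its level was not shown to differ between the null genotypes. Gli1 had 0.922 and 0.976 in Notch1 null, against 1.000 and 0.974 in Dll3 null, and these overlapped. This comparison and that with wild type share the Notch1 null arrays, so the Nkx2-2 values in them are not independent.

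**Figure D3:**
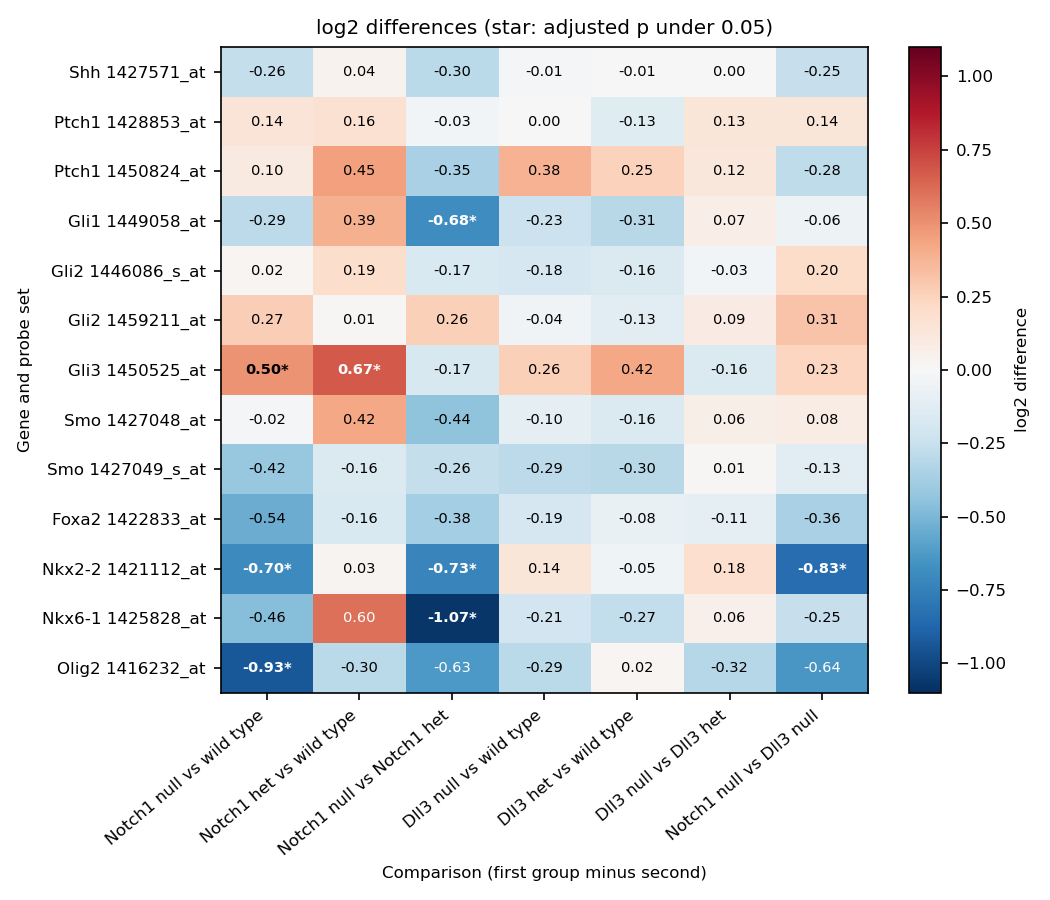
log2 difference of the 13 probe sets (down the page) in 7 comparisons (across, first group minus second), coloured red for higher and blue for lower. Starred values, adjusted p under 0.05, are in the 3 comparisons that hold Notch1 null and in Notch1 het against wild type, and none is in a comparison of Dll3 groups with wild type or with each other.

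The log2 ratios of Nkx2-2 and Olig2 correlated at Pearson 0.76 (Spearman 0.23), but at -0.50 once the 2 arrays farthest from the Nkx2-2 median, both Notch1 null, were left out, so this relation rests on those arrays. Foxa2 and Olig2 correlated at 0.81 (Spearman 0.68). Without the 2 arrays farthest from the Foxa2 median, Notch1_null replicate 2 and wild_type replicate 1, they correlated at 0.57. Notch1_null replicate 1 was kept in that value. Shh and Nkx2-2 correlated at 0.80 (Spearman 0.75), and at 0.54 without the 2 arrays farthest from the Shh median. Gli1 and Nkx6-1 correlated at 0.86 (Spearman 0.68) and at 0.57 without the Notch1 het array. Gli1 and Ptch1 at 1450824_at, both transcribed in response to the pathway, correlated at 0.14 (Spearman -0.07), and at -0.57 without the 2 arrays farthest from the Ptch1 median. These are 5 of 45 pairs over 9 arrays that share group structure, given as descriptions.

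Probe sets of other genes with the most similar profile were also found. Nkx2-2 was closest to Rgs19, a regulator of G protein signalling (r = 0.98), and to Sox3, a factor of neural progenitors along the whole neural tube (r = 0.98). Sox3 at 1435192_at had 0.560 and 0.552 in Notch1 null, 1.111 in Notch1 het and 1.064 and 0.959 in wild type. Its other probe set, 1450485_at, had 0.691 and 0.635 in Notch1 null, 0.718 in Notch1 het and 1.000 and 0.967 in wild type, so the 2 differ on the Notch1 het array. Foxa2 was closest to Tsen15 and Hsd11b2 (r = 0.98 and 0.97), Olig2 to Cwc15 and C030006K11Rik (0.97 and 0.96), Nkx6-1 to Tmem214 and Gatad2a (0.97 each), and Gli1 to Calr and Lasp1 (0.98 and 0.97). Gli3 was closest to Adam19 (0.97) and Tbl1x (0.95), Smo to Sf1 and Tex261 (0.97 each), Ptch1 to Ids (0.95) and Adam15 (0.94), Gli2 to Ppp2r5c (0.95) and Slc4a3 (0.93), and Shh to Ccnc and Ublcp1 (0.92 each). With 9 arrays, 5 probe sets (for Shh) to 157 (for Nkx2-2) had a correlation above 0.9.

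Among other genes of the pathway, 1 passed in Notch1 null. Of 23 measured genes that encode other Hedgehog components, with 41 probe sets, 1 rose, Cdon, a co-receptor for Shh, and none fell. The share of probe sets that rose was 2.44%, beside 3.46% over all. The share that fell was 0%, beside 5.99% over all. Cdon had 1.023 and 1.363 in Notch1 null, against 0.772 and 0.825 in wild type (1.48-fold, adjusted p = 0.0406). Scube1 (log2 -0.39 ± 0.12) and Prkaca, the catalytic subunit of protein kinase A, which restrains the pathway (-0.34 ± 0.12), did not pass. Csnk1e did not pass in Notch1 null at either probe set (log2 0.09 and -0.46) but was 2.09-fold lower in Notch1 het at 1 of them (adjusted p = 0.0329). The median log2 difference of these 41 probe sets was -0.04, beside -0.03 over all.

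The primary cilium, the organelle through which the signal passes, had 14 measured genes with 23 probe sets. In Notch1 null 2 genes rose, in 2 probe sets (8.7%, beside 3.46% over all). Another 2 fell, in 3 probe sets (13%, beside 5.99% over all). The median log2 difference was -0.01. Ift27, an intraflagellar transport subunit, fell 1.86-fold at 1434299_x_at and 1.63-fold at 1424648_at, and did not pass at 1435736_x_at (log2 -0.57 ± 0.17). Ift20, another such subunit, also fell (log2 -0.59 ± 0.14). Ift27 at 1434299_x_at and Ift20 were also lower in Notch1 het (1.74-fold and 1.71-fold). Kif3a, a motor subunit needed for the cilium, rose 1.54-fold at 1 probe set and had a log2 difference of -0.09 at the other.

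Among genes that answer Hedgehog signals outside the neural tube, Pax1 and the cyclins Ccnd1 and Ccnd2 fell in Notch1 null. The cyclins are listed as such targets, but in whole embryos their values cannot be placed outside the neural tube. Of 22 such genes with 35 probe sets, 3 genes fell, in 6 probe sets (17.1%, beside 5.99% over all), and 0 rose, and the median was -0.23. Pax1, of the sclerotome, a somite derivative that Shh induces, had 0.572 and 0.696 in Notch1 null, against 1.283 and 1.091 in wild type (1.88-fold lower, adjusted p = 0.00563), and it was also 1.61-fold lower than in Dll3 null (adjusted p = 0.0219). Ccnd1, cyclin D1, fell at 2 of 3 probe sets (1.61-fold and 1.47-fold). Ccnd2, cyclin D2, fell at 3 of 7 (1.51-fold to 2.50-fold). Its probe set 1448229_s_at was also lower in Notch1 het (1.94-fold), Dll3 null (2.18-fold) and Dll3 het (1.84-fold) against the same wild-type arrays. At 1416123_at, the 2.50-fold fall, wild type had 1.573 and 3.183, Notch1 null 1.000 and 0.799 and Dll3 null 0.980 and 0.850. At 1455956_x_at wild type had 1.464 and 1.366, Notch1 null 1.068 and 0.826 and Dll3 null 1.009 and 0.966. Wild type was thus the highest group at all 3 of these Ccnd2 probe sets. Bmp4 did not pass against wild type (log2 0.46 ± 0.14) and was 1.53-fold higher than in Dll3 null.

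Among 22 further genes of the ventral neural tube and floor plate, 2 fell in Notch1 null and 0 rose, in 29 probe sets with a median of -0.08. The share that fell, 6.9%, is near the 5.99% over all probe sets. Ntn1, netrin 1, an axon guidance cue of the floor plate, had 0.678 and 0.670 in Notch1 null, against 1.086 and 1.010 in wild type at 1454974_at (1.55-fold lower, adjusted p = 0.0134). Its other probe set did not pass (log2 -0.08 ± 0.32). Nkx2-9, a homeobox gene close to Nkx2-2 in pattern, fell 1.44-fold (adjusted p = 0.0496). Isl1, of motor neurons (log2 -0.19 and -0.37), and Evx1, of interneurons (0.46 ± 0.17), did not pass. Of 21 intermediate and dorsal neural tube genes, 4 fell in 6 of 33 probe sets (18.2%) and 0 rose, with a median of -0.13. Pax3, a dorsal factor, fell 2.02-fold at 1430335_a_at and 1.59-fold at 1420389_at, and both were also lower in Notch1 het (2.55-fold and 2.16-fold). Wild type was the highest group at both. Dll3 null had 0.698 and 1.014 at 1430335_a_at, beside 0.741 and 0.829 in Notch1 null. At 1420389_at Dll3 null had 0.685 and 0.985, beside 1.004 and 0.862 in Notch1 null. Pax6, of intermediate progenitors, fell at 2 of 5 probe sets (log2 -0.58 and -0.52), and Neurog1 at 1 of 2 (1.48-fold). Wild type was also the highest group at that Neurog1 probe set (1.377 and 1.320, against 0.828 and 1.000 in Notch1 null). Pax6 at 1425960_s_at was instead highest in Dll3 het (1.120 and 1.425). No difference between the lists was tested.

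Markers of neural progenitors and early neurons were lower in part in Notch1 null. Of 21 neural progenitor genes, 7 fell, in 9 of 37 probe sets (24.3%, beside 5.99% over all), 1 rose and 27 probe sets did not pass, with a median of -0.14. Hes5, a Notch target in progenitors, fell 3.26-fold at 1423146_at, and Fabp7, of radial glia, 3.95-fold, while Sox3 fell 1.82-fold and 1.48-fold at its 2 probe sets. The mean log2 ratio of this list was -0.30 and -0.31 in Notch1 null, -0.05 in Notch1 het, 0.06 and 0.06 in Dll3 null, 0.04 and 0.01 in Dll3 het and 0.05 and 0.04 in wild type. Of 21 early neuron genes 14 fell, in 22 of 45 probe sets (48.9%), and 0 rose. The means of this list were -0.44 and -0.35 in Notch1 null, -0.35 in Notch1 het, 0.08 and -0.07 in Dll3 null, 0.06 and 0.06 in Dll3 het and 0.35 and 0.23 in wild type. Wild type was thus the highest group, and in Dll3 null 39 of the 45 probe sets lay below wild type, of which 1 passed. In the Notch1 het array the early neuron mean was -0.35, the neural progenitor mean -0.05 and the Nkx2-2 ratio 1.034. That progenitor mean covers genes that moved both ways, with 17 of the 37 probe sets below wild type. Hes5 at 1423146_at was 0.772 in Notch1 het, against 1.519 and 1.474 in wild type. Fabp7 was 0.475, against 1.596 and 1.032, while Sox21 was 1.201, against 0.998 and 0.977. The part of neural tissue in the Nkx2-2 and Olig2 differences was not tested.

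For notochord and gut endoderm, the other sources of Shh and Foxa2, 1 probe set passed as lower in Notch1 null. Of 11 notochord genes 2 rose, in 4 of 19 probe sets (21.1%, beside 3.46% over all), and 1 fell, in 1 probe set (5.26%, beside 5.99% over all), with list means of 0.05 and 0.11 in Notch1 null and -0.05 and 0.01 in wild type. The keratins Krt19 (2.16-fold) and Krt8 (1.47-fold to 1.57-fold at 3 probe sets), which many epithelia also make, rose, and Car3 fell 2.14-fold at 1 of 2 probe sets. Of 16 gut endoderm genes 2 rose, in 3 of 30 probe sets (10%), and 0 fell, while 16 of the 30 lay below wild type. These were Sox17 (1.58-fold and 1.96-fold), which vessels also make, and Gata6 (1.38-fold), which heart also makes. The gut list means were 0.18 and -0.15 in Notch1 null, so its replicates stood apart, and -0.09 and 0.02 in wild type. Of 19 hypoxia response genes 17 rose in Notch1 null and 0 fell, with list means of 1.04 and 1.32 in Notch1 null, against -0.08 and -0.20 in wild type, and their part in the results above was not tested.

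**Figure D4:**
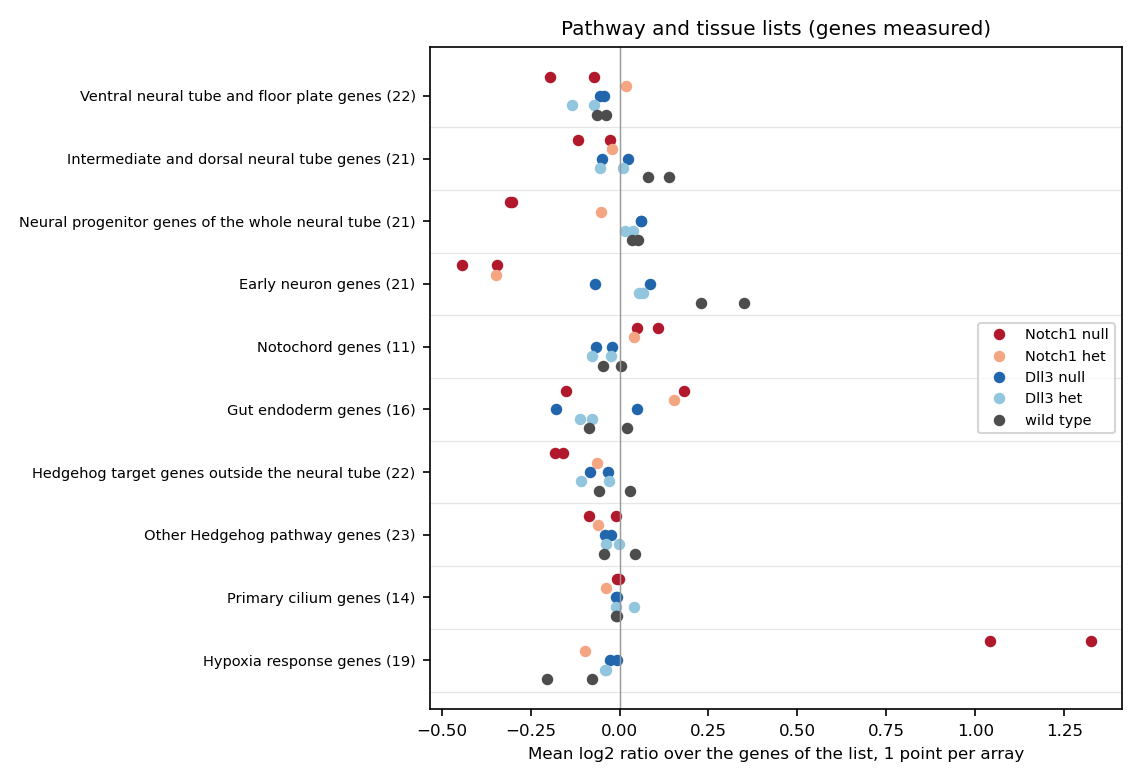
Mean log2 ratio over the measured genes of each pathway or tissue list, with 1 point per array coloured by genotype. Both Notch1 null arrays lie lowest for neural progenitor genes (-0.30 and -0.31) and highest for hypoxia response genes (1.04 and 1.32), while the other Hedgehog pathway genes lie within 0.09 of 0 in every array.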

How the data were processed

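RMA, which the submitters' processing notes name without a version, corrects for background and scales arrays to each other before it combines the probes of a set. What the authors deposited is a linear ratio for each probe set and array. The median of a probe set over the 9 arrays is exactly 1 for 19847 of 22690 and above 1 for 0, and the dividing step is not stated. It keeps fold changes but removes levels. After 64 control probe sets were set aside, log2 ratios of 22626 were fitted with limma 3.58.1 in R 4.3.3 (1 mean per genotype, 4 residual and 5.42 prior degrees of freedom), a procedure first tested on simulated data. The number of arrays limits the precision. All 9 columns were used, with groups from the genotype labels.

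The members and the 10 other gene lists (189 of 227 genes measured) were chosen with earlier results of these data known, and lists are described by counts and medians only. The rule for named genes took all members, the 3 genes of lowest p per list in Notch1 null against wild type (4 for the other pathway and ventral lists), genes changed in a comparison with a Dll3 group, and the 2 most alike in profile to each member; part of these is printed. Alternatives tried were median centring, quantile normalization, robust moderation, array weights, fewer groups, replicate number or embryo sex (from Xist and Eif2s3y) in the fit, averaging per gene, leaving out 2811 probe sets with a median below 1, a pseudocount of 0.1, a threshold of 0.1 and leaving out each array. One more, fitting the 5 arrays labelled wild type or Notch1, was chosen after seeing the data.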

Additional observations from a re-analysis of the deposited data

Results flagged for a closer look

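The effect of the 2 null genotypes differed for Nkx2-2. It was 0.626 and 0.624 in Notch1 null, below all other arrays, and 1.026 and 1.211 in Dll3 null. The test of the difference itself gave log2 -0.83 ± 0.11 SE (adjusted p = 0.00601 by limma). Over 20 alternatives the log2 difference lay between -0.95 and -0.72, and the call held in 18.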

How the results depend on the processing

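No member difference that passed under any setting turned its sign. Of 13 probe sets, 3 passed in Notch1 null against wild type, 5 with array weights, 6 at an adjusted p under 0.1 and between 0 and 3 when 1 array was left out. In Notch1 het against wild type 1 passed, 2 at an adjusted p under 0.1, and 0 with quantile normalization, the 2 groups alone, the replicate block, embryo sex in the fit, the 5 wild-type and Notch1 arrays fitted alone, or any 1 array left out (0 to 0). In Notch1 null against Notch1 het 3 passed, 1 with the replicate block or embryo sex, 0 with quantile normalization, the 2 groups alone or those 5 arrays alone, and 0 to 2 when 1 array was left out. In Notch1 null against Dll3 null 1 passed, 2 with probe sets averaged per gene or at 0.1, 0 with the 2 groups alone and 0 to 2 when 1 array was left out. The cause of these moves was not tested, beyond the fewer arrays fitted. In the 3 comparisons of Dll3 groups with wild type or each other, 0 passed under every setting run. Over all probe sets, calls numbered 2139 in Notch1 null against wild type and 306 to 3308 under the alternatives, 624 and 0 to 1477 in Notch1 het, 403 and 0 to 1004 for Notch1 null against het, 20 and 0 to 66 in Dll3 null, 110 and 0 to 569 in Dll3 het, 0 and 0 to 17 for Dll3 null against het, and 1298 and 9 to 2317 between the nulls. Replicate numbers do not pair the samples: replicate differences correlated between groups at -0.153 to 0.165, and the replicate block is an alternative only. Depth is unknown for ratios, and detection of a transcript could not be judged.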
